A study of Homo sapiens with 6 samples.

Results

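Immediate early transcription factors were examined in freeze-dried human B cells and their paired controls. A set of 10 genes, FOS, FOSB, JUN, JUNB, JUND, EGR1, EGR2, EGR3, IER2 and ATF3, was taken by name from 23284 gene symbols, and each was listed at 1 locus. Of these, 9 had a mean FPKM (fragments per kilobase of transcript, scaled to library size, so that levels of different genes can be set side by side) above 1 in at least 1 group. These 9 were among the 11134 genes tested, whereas FOSB did not reach that level and is given as values only. Poly(A) RNA-Seq of 6 samples asked whether lyophilized cells kept at room temperature still yield the RNA profile of fresh cells. All 6 samples were of GM12873, a B-lymphoblastoid cell line, that is, B cells made to grow without limit by Epstein-Barr virus, and all were grown in RPMI-1640 medium with serum, antibiotics and glutamine. The 3 control samples were washed in PBS and taken up in trizol. The 3 lyophilized samples were washed in the same way, freeze-dried in 0.1 M trehalose (a sugar that protects dried cells) in PBS, stored for 2 weeks at room temperature and then taken up in trizol. The labels pair each lyophilized sample with 1 control sample, which gives pairs 1, 2 and 3, but do not say what the members of a pair share. A single line was used, so the spread below is that between samples of this line and may be technical.

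Immediate early genes are transcribed within minutes of a signal at the cell surface from pre-formed factors, without a need for new protein. Their transcripts are short-lived, and their products in turn switch on later genes. FOS and JUN proteins pair through leucine zippers to form AP-1, which binds TGACTCA and related sites. The EGR proteins are zinc finger factors that bind GC-rich sites, and in B cells they are induced through the antigen receptor. ATF3 is a stress-induced factor of the ATF/CREB family, which binds the cyclic AMP response element. IER2 is a small nuclear protein induced with the others.

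The 6 libraries carried the B cell identity given in the labels. The 7 B-like markers MS4A1, CD79A, CD79B, PAX5, CD74, EBF1 and CD22 were above 1 FPKM in every library, with a summed level of 2.92e+03 to 3.91e+03 FPKM in control and 2.66e+03 to 3.61e+03 FPKM in lyophilized samples. The sums of the T-like, monocyte-like, erythroid-like and fibroblast-like markers were at most 0.678, 0.86, 0.228 and 0.409 FPKM, none of these markers was above 1 FPKM, and CD3G, HBB, DCN and LUM were at 0 in every library. Depth relative to control sample 1, recovered from the steps of the lowest FPKM values, was 1.38 and 1.66 in control samples 2 and 3 and 1.90, 1.84 and 1.53 in lyophilized samples 1 to 3. Over all genes the difference between lyophilized and control samples followed the GC content of the transcript. Its median on the log2(FPKM + 0.1) scale, the scale of all differences below, ran from 0.365 at 32 to 34% GC to -0.353 at 68 to 70% GC. The Spearman correlation across 10745 genes, which share the same 6 libraries, was -0.76. The transcripts of the 10 genes hold between 50.4% (ATF3) and 69.9% GC (JUND), all above the median of 48.1% of the genes tested, so the difference of each gene tested is given with and without a correction for GC content. Bulk RNA cannot tell fewer cells of a state apart from less RNA per cell.

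The promoters of the 10 genes were read to show which of the elements known from this response lie next to the start site. RefSeq promoters (250 bases before each start, GRCh38.p14) were at hand for 9 of the 10, all but EGR3. The 120 bases before the start of 4 of them are printed below, 5' to 3', because EGR1 and EGR2 gave the largest differences between the groups, FOS is the model gene of the response and JUNB had the highest level. Capitals mark the CArG box (the site of serum response factor), the CRE core TGACG or CGTCA (a part of the cyclic AMP response element, CRE) and the TATA box letters TATAA.
EGR1, chr5:138465359-138465478, plus strand: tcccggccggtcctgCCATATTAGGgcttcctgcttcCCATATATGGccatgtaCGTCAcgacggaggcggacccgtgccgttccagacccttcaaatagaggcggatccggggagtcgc
EGR2, chr10:62816367-62816486, minus strand: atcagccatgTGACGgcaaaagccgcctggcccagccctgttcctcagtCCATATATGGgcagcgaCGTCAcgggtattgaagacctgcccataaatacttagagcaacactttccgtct
FOS, chr14:75278708-75278827, plus strand: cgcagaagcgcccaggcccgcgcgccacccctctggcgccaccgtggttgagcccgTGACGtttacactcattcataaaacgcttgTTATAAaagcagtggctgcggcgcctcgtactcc
JUNB, chr19:12791366-12791485, plus strand: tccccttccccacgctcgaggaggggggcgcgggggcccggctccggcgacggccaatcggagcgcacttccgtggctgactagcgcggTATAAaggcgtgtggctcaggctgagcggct

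Within the promoter stretches searched, a CArG box was found in EGR1 and EGR2 among the 9 genes. EGR1 holds 2 of them, at -105 to -96 and at -83 to -74 from the start. EGR2 holds 1, at -71 to -62 from the farthest downstream of its 3 listed starts, and none at its other listed starts. Of all 35116 promoters of this length, 1.16% hold a CArG box on either strand. A CRE core was found in each of the 9 genes except ATF3, against 21.2% of all promoters. A gene was counted if any of its listed starts held the core, and in EGR2 only the farthest downstream start did. For ATF3 only the 2 listed starts were searched, so the lack of a core holds for those starts alone. JUND holds the full element TGACGTCA, against 1.65%. The TATA box letters, counted on both strands, were found in FOS, FOSB, JUNB, JUND and the second of the 2 ATF3 starts, against 18.9%. The matches begin at -34 in FOS, -30 in FOSB, -31 in JUNB and -29 in JUND, but at -231 in ATF3. EGR1 holds an EGR site (GCGNGGGCG) at -198 to -190, against 8.41%, and TGACTCA or TGAGTCA was found in none of the 9, against 4.2%. The CRE contains the core, so these counts overlap. A match is only a match of letters. Bases farther upstream were not searched. The lack of a match, such as that of a CArG box in FOS, therefore holds for these stretches alone.

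The 3' UTR was searched for ATTTA, the core of AU-rich elements, which mark short-lived transcripts. FOS holds 5 copies in 806 bases, and 7.74% of 6862 other annotated 3' UTRs of at least that length hold as many in their first 806 bases. EGR1, EGR2 and EGR3 hold 1, 2 and 3 copies, JUN, JUNB and JUND hold 3, 2 and 1, FOSB and ATF3 hold 3 each, and IER2 holds none. By the same count, as many are held by 81% of comparable 3' UTRs for EGR1, 62.1% for EGR2, 81.2% for EGR3, 48% for JUN, 27.5% for JUNB, 68% for JUND, 71.4% for FOSB and 45.3% for ATF3. The stretch with the most copies in FOS and that in EGR2 are printed below from GRCh37 with ATTTA in capitals. They are shown because FOS has the most copies and EGR2 is the gene whose groups did not overlap.
FOS, chr14:75748750-75748779, plus strand, bases 623 to 652 after the stop codon: aaacgttttattgtgtttttaATTTATTTA
EGR2, chr10:64572172-64572201, minus strand, bases 766 to 795 after the stop codon: cATTTAtgatctcagaggttaacttATTTA

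The 10 genes covered a wide range of levels. JUNB was highest, with a mean of 104.1 FPKM ± 33.3 (SD, n = 3) in control and 98.2 FPKM ± 39.8 (SD, n = 3) in lyophilized samples, above 94.1% of the genes tested by its mean over the 6 samples. IER2 and JUND followed at control means of 48.7 and 44.1 FPKM, and their control ranges overlapped. ATF3 came next at 15.6 FPKM, below JUND and above the rest in every control sample. EGR2, EGR3, JUN and EGR1 stood close together at 10.7, 8.90, 6.84 and 5.501 FPKM, and the control ranges of each of these neighbours overlapped. FOS lay below them at 1.79 FPKM, which is above 8.63% of the genes tested, and FOSB was lowest at 0.206 FPKM. The order of the means was the same in the lyophilized samples, where the ranges of JUN and EGR1 no longer overlapped. The 3 JUN family transcripts summed to between 107.2 and 198.6 FPKM per sample, while FOS and FOSB together summed to between 1.54 and 2.25 FPKM.

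**Figure D1:**
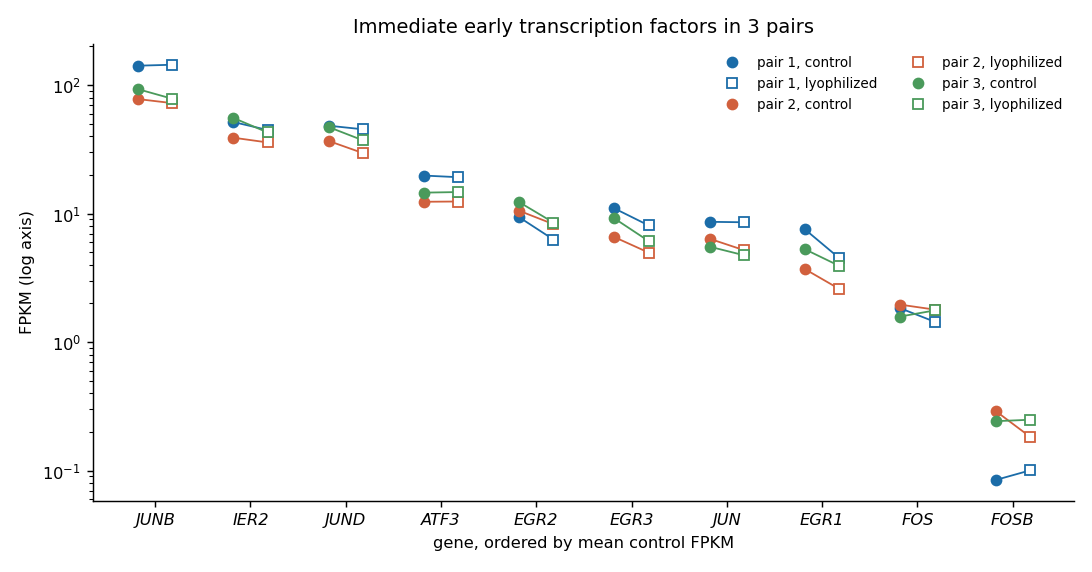
FPKM on a log axis for the 10 genes, ordered by mean control level, with 1 point per sample, filled for control and open for lyophilized samples, and a line joining the members of each of the 3 pairs. The EGR1, EGR2 and EGR3 lines fall in every pair, while the ATF3 lines are nearly flat, at 19.8 and 19.2 FPKM in pair 1.

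The comparison of the groups asked which of these transcripts differ after freeze-drying and storage. EGR1, EGR2 and EGR3 each fell within all 3 pairs, and their fitted means were 21.3% to 31.6% lower depending on the gene and the GC correction. JUND and IER2 were lower by 15.9% and 15.0% in a fit with the pairs, and those calls were not made once GC content was taken into account. FOS, JUN, JUNB and ATF3 did not pass the test in either of these fits. In the comparison without the pairs, none of the 9 genes tested passed an adjusted p of 0.05 in limma, against 64 of all genes (0.575% called, 62 lower and 2 higher). At an unadjusted p under 0.05 that fit named 1 of the 9, EGR2, and 1573 of all 11134 genes tested. With the pair as a block, 5 of the 9 were called lower and none higher, where 14.9% of all genes were called lower and 15.9% higher. With the block and the GC correction, 3 of the 9 were called lower and none higher, against 6.52% and 9.33% of all genes. With the GC correction and no block, 0 of the 9 and 0 of all genes were called (EGR1, EGR2 and EGR3 at adjusted p = 0.94, 0.739 and 0.913). The adjusted p-values given below with the GC correction are from the fit that also has the block. All 9 had a negative difference without the correction and 4 of 9 with it, and the median of the 9 went from -0.23 to 0.02, beside 0.04 and 0.02 over all genes.

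EGR1 (chr5:137801181-137805004 in hg19, plus strand) is the best known of the EGR factors and a direct target of ERK signalling. It stood at 7.53, 3.70 and 5.27 FPKM in control samples 1 to 3 and at 4.50, 2.59 and 3.92 FPKM in lyophilized samples 1 to 3. The groups overlapped, since control sample 2 was below lyophilized samples 1 and 3, but within each pair the lyophilized sample was lower, at 0.598, 0.702 and 0.743 times its control. These levels rest on 302, 204 and 350 reads in the controls and 342, 191 and 240 reads in the lyophilized samples, recovered from the FPKM steps. The log2 difference was -0.55 (SE 0.291, adjusted p = 0.423) without the block and -0.55 (SE 0.108, adjusted p = 0.00648) with it. With the GC correction it was -0.40 (adjusted p = 0.027), a level 24.1% lower, and this last call was not made without pair 1 (adjusted p = 0.0866).

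EGR2 (chr10:64571756-64578927, minus strand), which restrains activation in lymphocytes and drives myelin genes in Schwann cells, was also lower in each pair. Its control levels were 9.37, 10.5 and 12.3 FPKM and its lyophilized levels 6.28, 8.27 and 8.52 FPKM. Every lyophilized sample was below every control sample, which held for EGR2 alone among the 9 genes. Of all genes, which cover every GC content, 12.6% had lower groups that did not overlap. Within pairs the lyophilized level was 0.670, 0.787 and 0.694 times the control. The log2 difference was -0.48 (SE 0.163, adjusted p = 0.251) without the block, -0.48 (SE 0.0847, adjusted p = 0.00424) with it and -0.41 (adjusted p = 0.00679) with the GC correction. These last calls were also made with any 1 of the 3 pairs left out. The annotation places a long non-coding RNA on the same strand over EGR2, and reads of both cannot be told apart where they overlap.

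EGR3 (chr8:22545174-22550815, minus strand), which acts with EGR2 downstream of antigen receptors, behaved like EGR1 across samples. It stood at 11.0, 6.56 and 9.17 FPKM in controls and at 8.09, 4.97 and 6.11 FPKM in lyophilized samples. The groups overlapped, with control sample 2 below lyophilized sample 1, and the lyophilized level was 0.737, 0.758 and 0.666 times its paired control. The log2 difference was -0.47 (SE 0.235, adjusted p = 0.403) without the block, -0.47 (SE 0.0874, adjusted p = 0.00514) with it and -0.35 (adjusted p = 0.0176) with the GC correction. Without pair 3, neither of these last calls was made (adjusted p = 0.075 and 0.125). A long non-coding RNA lies over EGR3 on the opposite strand, and its reads cannot be told apart from those of EGR3. Summed over the 3 genes, EGR transcripts went from 27.9, 20.8 and 26.7 FPKM in controls to 18.9, 15.8 and 18.5 FPKM in lyophilized samples.

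**Figure D2:**
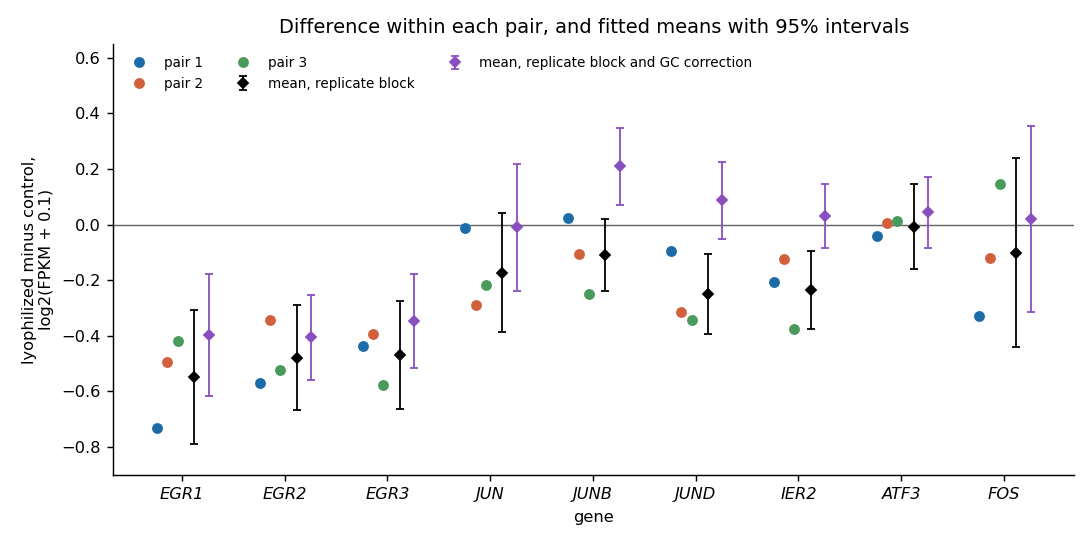
Lyophilized minus control on the log2(FPKM + 0.1) scale for the 9 genes tested, with 1 point per pair and diamonds for the mean with its 95% interval from the fit with the pairs (black) and from that fit after GC correction (purple). The purple intervals of EGR1, EGR2 and EGR3 lie below 0 (EGR2 from -0.56 to -0.25), those of JUN, JUND, IER2, ATF3 and FOS include 0, and that of JUNB lies above it, from 0.07 to 0.35, with an adjusted p of 0.0519.

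The JUN family encodes the AP-1 subunits that can pair with themselves or with FOS proteins, and all 3 of its genes are without introns. JUN itself (chr1:59246463-59249785, minus strand) stood at 8.63, 6.37 and 5.53 FPKM in controls and at 8.56, 5.19 and 4.74 FPKM in lyophilized samples. Both samples of pair 1 were above the other 4, and the groups overlapped. The lyophilized sample was lower in each pair, at 0.992, 0.815 and 0.858 times its control, but the log2 difference of -0.17 (SE 0.254, adjusted p = 0.783; with the block 0.187) did not pass the test. Its 95% interval with the block ran from -0.39 to 0.04, and with the GC correction the difference was -0.01.

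JUNB (chr19:12902310-12904125, plus strand), which often opposes JUN in growth control, stood at 141.6, 77.8 and 93.0 FPKM in controls and at 144, 72.4 and 78.3 FPKM in lyophilized samples. Here too both samples of pair 1 were far above the rest and the groups overlapped. The log2 difference was -0.11 (SE 0.306, adjusted p = 0.89), with an adjusted p of 0.172 with the block. It turned to 0.21 (adjusted p = 0.0519) after the GC correction, so no direction is given for JUNB. HOOK2 overlaps JUNB on the opposite strand, and the library kit does not mark strand. HOOK2 stood at 2.21 FPKM ± 0.141 (SD, n = 3) in control and 1.48 FPKM ± 0.357 (SD, n = 3) in lyophilized samples, far below JUNB.

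JUND (chr19:18390563-18392432, minus strand), the JUN gene that resting cells also express, stood at 48.3, 36.8 and 47.2 FPKM in controls and at 45.3, 29.6 and 37.2 FPKM in lyophilized samples. The lyophilized sample was lower in each pair, and the groups overlapped. The log2 difference of -0.25 (SE 0.182, adjusted p = 0.546) passed with the block (adjusted p = 0.0193), and without pair 3 it did not (adjusted p = 0.187). With the GC correction the sign turned, to 0.09 (adjusted p = 0.364). JUND has the highest GC content of the 10 genes.

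IER2 (chr19:13261282-13265718, plus strand) stood at 51.6, 39.0 and 55.6 FPKM in controls and at 44.7, 35.8 and 42.8 FPKM in lyophilized samples. Each lyophilized sample was below its own control, while the groups overlapped. The log2 difference of -0.23 (SE 0.162, adjusted p = 0.525) passed with the block (adjusted p = 0.0218), and without pair 3 it did not (adjusted p = 0.293). With the GC correction it was 0.03 (adjusted p = 0.716). The annotation has 2 long non-coding RNAs over IER2 on the opposite strand, with the same limit. In all, 6 of the 9 genes, the 3 EGR genes, JUN, JUND and IER2, were lower in every pair, where 28.8% of all genes were. That share covers genes of every GC content. All 9 lie above the median GC content of the genes tested, and these counts are without GC correction.

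ATF3 (chr1:212738676-212794119, plus strand) had the smallest difference of the 9 before GC correction. Its levels were 19.8, 12.4 and 14.6 FPKM in controls and 19.2, 12.4 and 14.7 FPKM in lyophilized samples, so that the members of each pair nearly coincided. The log2 difference was -0.01 (SE 0.216, adjusted p = 0.994), and its 95% interval with the block ran from -0.16 to 0.15. The GC correction moved it to 0.04 (adjusted p = 0.633).

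FOS (chr14:75745481-75748937, plus strand), the founding member of the family, stood at 1.83, 1.96 and 1.58 FPKM in controls and at 1.44, 1.79 and 1.76 FPKM in lyophilized samples. The groups overlapped, and FOS was lower in 2 of the 3 pairs. The recovered reads were 49, 72 and 70 in controls and 73, 88 and 72 in lyophilized samples. The log2 difference was -0.10 (SE 0.178, adjusted p = 0.82), and its 95% interval with the block ran from -0.44 to 0.24. With the GC correction the difference was 0.02 (adjusted p = 0.943), with an interval from -0.32 to 0.36.

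FOSB (chr19:45971253-45978437, plus strand), a FOS relative known from neurons and bone, was near the limit of what the libraries could measure. Its levels were 0.0845, 0.291 and 0.242 FPKM in controls and 0.100, 0.184 and 0.249 FPKM in lyophilized samples. These came from 4, 19 and 19 reads in controls and 9, 16 and 18 reads in lyophilized samples. Both samples of pair 1 were lowest. The 4 reads of control sample 1 allow 1.09 to 10.2 reads (95% exact Poisson interval, counting error only), that is, 0.023 to 0.216 FPKM.

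**Figure D3:**
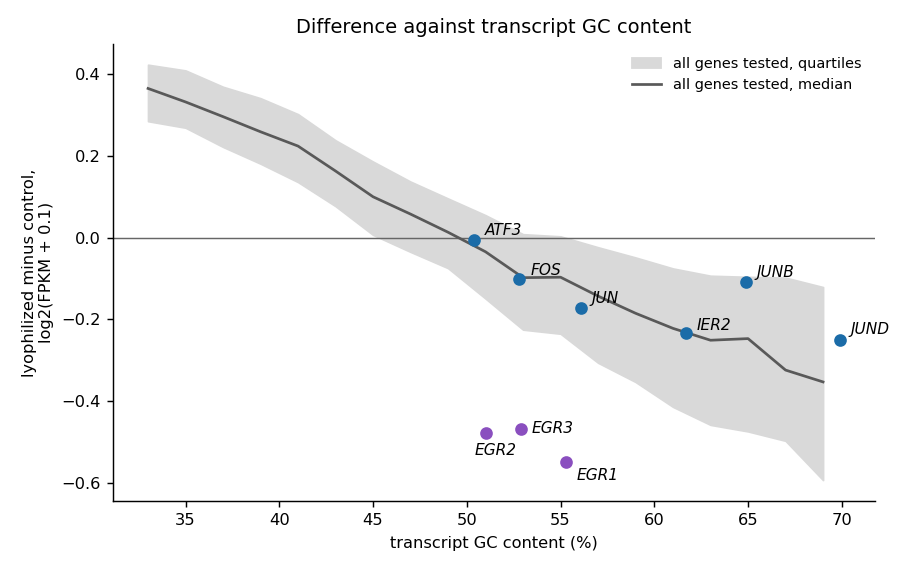
Lyophilized minus control on the log2(FPKM + 0.1) scale against the GC content of the transcript in percent for the 9 genes tested, over the median (line) and quartiles (grey) of all genes in steps of 2% GC. FOS, JUN, IER2 and ATF3 lie near the line, JUNB and JUND lie above it, and EGR1, EGR2 and EGR3 (purple) lie below the grey band, EGR2 at -0.48 where the lower quartile of its GC step is -0.149.

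Most of the 9 genes also differed between the pairs. A moderated F test of the pair number, with the condition as a term, called 8 of the 9 genes (adjusted p from 4.7e-05 to 0.0237), all but FOS (adjusted p = 0.629), where 45.2% of all genes were called. The largest range between the pairs was that of JUNB, 0.93 on the log2 scale (adjusted p = 4.7e-05), with pair 1 at 1.90 times pair 2 and 1.67 times pair 3. EGR1 followed with 0.89 (adjusted p = 0.00163), JUN with 0.74 (adjusted p = 0.00188), EGR3 with 0.71 (adjusted p = 0.00178) and ATF3 with 0.65 (adjusted p = 0.000715). JUND and IER2 spanned 0.50 and 0.38 (adjusted p = 0.00209 and 0.00449). In JUNB, JUND, EGR1, EGR3 and ATF3, pair 1 was highest and pair 2 lowest, while pair 3 was lowest for JUN. For IER2, pair 2 was lowest, and pairs 1 and 3 lay only 0.02 apart. EGR2 went the other way, with pair 1 lowest and pair 3 highest (range 0.41, adjusted p = 0.0237), and that call was not made in 5 of 11 alternatives. The range between pairs was above the size of the difference between the groups in 8 of the 9 genes, all but EGR2, and in 73.3% of all genes. With the GC correction it was so in all 9, EGR2 included (0.457 against 0.406). The median range was 0.65 for the 9 and 0.34 for all genes. Relative depth within pairs was not even, since lyophilized sample 1 was 1.90 times as deep as control sample 1, and its part in these values was not tested.

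**Figure D4:**
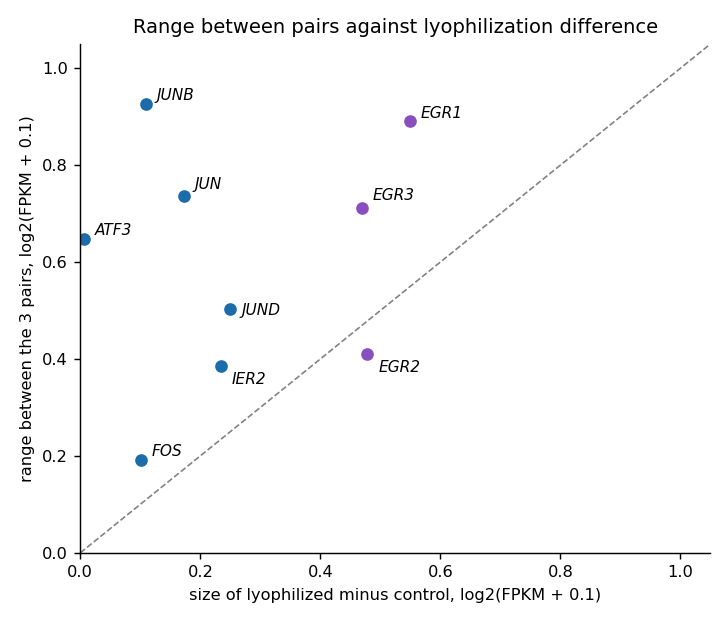
Range between the 3 pairs against the absolute difference between lyophilized and control samples, both on the log2(FPKM + 0.1) scale, for the 9 genes tested, both without GC correction, with the dashed line where they are equal and EGR genes in purple. EGR2 is the gene below the line, at 0.48 against 0.41 (above it with GC correction), and JUNB is farthest above it, at 0.11 against 0.93.

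Some of the 9 genes ran together over the 6 samples. Of 36 pairs of genes, 7 had a Pearson correlation above 0.90, namely EGR1 with EGR3 (0.97), JUND with EGR3 (0.96), EGR1 (0.93) and IER2 (0.92), JUNB with ATF3 (0.96) and JUN (0.91), and EGR3 with IER2 (0.90). EGR2 had 0.23 with EGR1 and 0.23 with EGR3. These values describe 6 samples that are paired and share their libraries. Of the genes outside the set, TMED4, ALDOA and HPCAL1 were most like JUNB (0.999, 0.998 and 0.997). MPRIP, SOX12 and TMEM132A were most like EGR2 (0.998, 0.994 and 0.993), and ASPHD2, FAM27A and FAM108C1 were most like FOS (0.960, 0.958 and 0.949). FAM27A has near-identical copies in the genome, so its level is uncertain. A correlation above 0.95 was common for JUNB, with 265 genes, and EGR2, with 145, but not for FOS, with 2.

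Of 4 related lists, none had a gene past the threshold in the comparison without the pairs. Genes named here beyond the 2 with the largest difference in each list were named after their values had been seen. The median difference over all genes was 0.04, and 0.02 after GC correction. Among other AP-1 and related bZIP genes, 12 of 13 were tested, with a median difference of -0.10, or 0.05 after GC correction. With the block, FOSL1, MAFG and MAFK were lower and ATF2 was higher, and after GC correction none was lower and BATF, BATF3 and ATF4 were higher. MAFK, a small MAF protein without an activation domain, went from 8.62 FPKM ± 0.378 (SD, n = 3) to 6.05 FPKM ± 0.563 (SD, n = 3). Its log2 difference was -0.51 (adjusted p = 0.129, with the block 0.00419), or -0.21 after GC correction (adjusted p = 0.107). FOSL1, a FOS relative of the later response, had -0.51 as well (adjusted p = 0.397, with the block 0.0267) and -0.31 after GC correction (adjusted p = 0.225).

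Among other immediate early genes, 11 of 18 were tested, with a median of -0.17, or -0.07 after GC correction. EGR4, NR4A2, KLF4, IER5L, ARC, CYR61 and CTGF were under the filter. With the block, NR4A1, KLF2, IER5, BHLHE40 and SRF were lower and none was higher, and after GC correction NR4A1 was lower and IER3 higher. NR4A1, an orphan nuclear receptor induced by antigen receptor signalling, stood at 6.86, 2.63 and 4.36 FPKM in controls and 4.37, 1.88 and 2.77 FPKM in lyophilized samples. It was lower in every pair, with a log2 difference of -0.58 (adjusted p = 0.514, with the block 0.00566) and of -0.37 after GC correction (adjusted p = 0.0298). KLF2, a quiescence factor of lymphocytes, had -0.33 (adjusted p = 0.437, with the block 0.0282) and -0.07 after GC correction (adjusted p = 0.623).

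Among the feedback and decay genes of the response, 20 of 21 were tested, with a median of -0.07, or 0.04 after GC correction. With the block, DUSP2, ZFP36, ZFP36L1, ZFP36L2 and PPP1R15A were lower and SGK1, RGS1 and CD69 higher, and after GC correction ZFP36, ZFP36L1 and BTG1 were lower and GADD45B higher. ZFP36 encodes tristetraprolin, which binds AU-rich elements and directs such transcripts to decay. It stood at 88.6, 39.9 and 61.9 FPKM in controls and at 54.5, 25.6 and 39.7 FPKM in lyophilized samples, lower in every pair. Its log2 difference was -0.66 (adjusted p = 0.416, with the block 0.00021) and -0.48 after GC correction (adjusted p = 0.00162). RGS2, a brake on G protein signalling, had 0.66 (adjusted p = 0.457, with the block 0.0641) and 0.48 after GC correction (adjusted p = 0.20), with 1.95, 1.25 and 4.09 FPKM in lyophilized samples beside 1.28, 1.30 and 1.43 FPKM in controls.

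Of the kinases and factors upstream of the immediate early genes, 16 of 18 were tested, with a median of 0.05, or -0.002 after GC correction. MKL1, CREBBP and EP300 were lower with the block, and again after GC correction, where MAP2K2 and RPS6KA1 were higher. MKL1, the actin-regulated partner of serum response factor, stood at 13.96, 11.5 and 13.8 FPKM in controls and at 9.24, 8.30 and 8.91 FPKM in lyophilized samples. Its log2 difference was -0.56 (adjusted p = 0.111, with the block 0.00163) and -0.30 after GC correction (adjusted p = 0.013). CREBBP, a histone acetyltransferase and coactivator, went from 5.73 FPKM ± 0.319 (SD, n = 3) to 3.68 FPKM ± 0.169 (SD, n = 3), with -0.63 (adjusted p = 0.0813, with the block 0.00275) and -0.47 after GC correction (adjusted p = 0.0158). Of the 59 genes tested in the 4 lists, 20 (33.9%) were called with the block, 16 lower and 4 higher, where 30.7% of all genes were called. After GC correction 14 (23.7%) were called, 7 lower and 7 higher, against 15.8% of all genes. With pair 1, 2 or 3 left out, the block called 14, 31 and 8 of the 59, and with the GC correction 13, 20 and 9.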

How the data were processed

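Poly(A) RNA of 3 control and 3 lyophilized GM12873 samples had been sequenced by the authors on a NextSeq 500 after TruSeq v2 preparation, which does not mark strand. The authors mapped reads with TopHat2 2.0.7 to hg19 and deposited FPKM values from Cufflinks, 1 table per sample. Its version and gene annotation are not given in the sources used here. The tables hold no counts. FPKM steps of low records gave relative depth, and whole reads were recovered within 0.01 for FOS, FOSB, JUN and EGR1, a check added after seeing the data; their intervals cover counting error only.

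Of 24934 records, the one with the highest mean FPKM was kept per symbol, 1622 small RNA symbols were left out, and a gene was tested where either group had a mean FPKM above 1. limma 3.58.1 (R 4.3.3, variance trend, two-sided, Benjamini-Hochberg adjustment over all 11134 genes, threshold 0.05) was applied to log2(FPKM + 0.1), which understates changes of low genes. Like the study's own test (Cuffdiff, which was not rerun), the main comparison leaves out the pairs. A further fit had the pair number as a block. Another kept that block after a loess curve (span 0.3, degree 2) over transcript GC content was subtracted in each sample (GENCODE transcripts on GRCh37, 96.5% of genes). The adjusted p-values given for single genes with the GC correction are from this fit with the block. The labels pair the samples, and deviations from the group means correlated at 0.716, 0.603 and 0.476 within pairs 1 to 3. The scripts were tested on simulated data. Tables and figures were made with pandas 2.3.3, numpy 2.4.6, matplotlib 3.10.9 and scipy 1.17.1 under Python 3.11.15.

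All 10 genes are named; of each related list, the genes past the threshold without pairs and the 2 with the largest absolute difference; and the 3 genes most correlated with the highest gene of each family. Members and lists were chosen with earlier results of these data known. Alternatives covered pseudocount, filter, scaling, trend, block, GC correction, records per symbol and samples left out. A further B cell marker is not reported here.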

Additional observations from a re-analysis of the deposited data

How the results depend on the processing

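Without the pairs, the number of genes called, 64, became 0 with no filter, 97 with median scaling, 0 with GC correction and no block, and 0 (lowest and highest) with any 1 sample left out. It became 3423 with the replicate block and 1703 with the replicate block and GC correction. With 1 pair left out, a choice made after seeing the data, the block gave 2205, 5355 and 1257 without pair 1, 2 or 3, and with the GC correction 1489, 2247 and 1002.

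For the 9 genes, the pairing changed the count from 0 to 5 with the replicate block and to 3 with the replicate block and GC correction, with 2 to 5 and 2 to 5 when 1 pair was left out. For the related lists, the count went from 0 to 20 and 14, with 8 to 31 and 9, 13 or 20. Each other alternative gave 0 for both. EGR1, EGR2 and EGR3 were lower in all 23 alternatives, with differences between -0.80 and -0.30, -0.57 and -0.34, and -0.67 and -0.30, and were called in 7, 8 and 6. JUNB reversed to 0.27 (adjusted p = 0.00601) and 0.24 (adjusted p = 0.0317) with block and GC correction without pairs 2 and 3, and JUND to 0.17 (adjusted p = 0.0404) without pair 2. FOS, JUN and ATF3 were called in none, and each changed sign in at least 1 alternative, as did IER2.

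The number of genes that differed between pairs, 5036, was 2533 with no filter and lay between 4057 and 6393 with 1 sample left out. The pair test called 6 of the 9 with no filter, and 7 to 8 with 1 sample left out. The cause of these changes was not tested. Depth limits FOSB and FOS, with 4 to 19 and 49 to 88 reads.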
